A study of Mus musculus with 32 samples.

Results

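Tumor Pmel CD8 T cells were compared with spleen Pmel CD8 T cells of the same study by bulk RNA sequencing, with 4 tumor libraries against 4 spleen libraries, taken by their labels, of 32 libraries in all. Pmel T cells carry a transgenic receptor for a melanocyte antigen that melanoma cells share with normal pigment cells. The 8 groups of the series were tumor, skin, spleen, lung, liver, the lymph node on day 12, lymph node memory cells and naive cells, with 4 libraries each. Every library was labelled as Pmel CD8 T cells of C57BL/6 mice aged 16 weeks with melanoma-associated vitiligo, an autoimmune loss of pigment that follows melanoma, and the sorted cells were CD8+ Thy1.1+. Skin, lung, liver and memory lymph node cells came from mice 45 days past surgery, and no time is given for the tumor and spleen samples. All groups thus share the transgenic receptor and, per the labels, the disease state, and the spleen cells are no untreated control. Separate mice are not stated for the libraries, so a p-value here reflects library-to-library spread that may be technical.

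CD8 T cells that meet antigen without pause in a tumor are known to keep inhibitory receptors such as PD-1 on their surface, to express the factor TOX and to lose TCF-1, the factor of naive and stem-like T cells. Circulating memory T cells instead keep KLF2, a factor that turns on the egress receptor S1PR1, and they keep the survival receptor for IL-7. Resident memory cells of epithelia shut off this egress program and many carry the integrin CD103, which binds E-cadherin on epithelial cells. The comparison sets cells of the tumor beside cells of the circulation for each of these programs.

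Expression is given in TPM, the share of a library's transcripts after scaling for transcript length. A log2 change is tumor minus spleen on the log2(TPM + 1) scale, which understates the change of low genes, with its standard error (SE). Other errors are standard deviations (SD) over n = 4 libraries. A gene was called when its limma p-value, adjusted over 19738 tested genes by Benjamini-Hochberg, lay under 0.05. This p-value uses a spread pooled over all 8 groups, so it also reflects libraries outside tumor and spleen. Over all tested genes the SD within a group was 0.512 in tumor, 0.892 in spleen and 0.847 in skin on that scale. It ran from 0.303 in day 12 lymph node cells to 1.33 in liver. Of those genes 1233 were called (6.25%), 676 higher in tumor (3.42%) and 557 lower (2.82%). In 14.7% of tested genes the tumor and spleen libraries did not overlap, with tumor above in 6.86% and below in 7.82%. At an unadjusted p under 0.05 the share was 18.1%. The median change of all tested genes was -0.03. Without tumor library 3 the calls were 450 higher and 371 lower. The lower calls were 335 without tumor library 2, 328 without tumor library 4 and 273 without tumor and spleen libraries 4 together.

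The labelled cell type was checked first. Trbv14, the beta variable segment of the transgenic receptor, made up 98.9% to 99.2% of the TPM of all 35 beta variable segments in tumor and 92.4% to 99.6% in spleen, the lowest in spleen library 4. The 16 T cell identity genes, such as the CD3 and CD8 chains, summed to 7586 ± 2255 TPM in tumor and 8700 ± 1924 TPM in spleen (exact two-sided permutation test, p = 0.4857, where 0.0286 is the smallest p this design allows). None of the 16 was called by limma, and at an unadjusted p under 0.05 there was 1, lower in tumor. Tumor library 4 had the lowest identity sum of the 8 libraries, 4485 TPM. Transcripts of other cells differed between the groups, and in bulk samples fewer cells of a type and less RNA per cell cannot be told apart. B cell markers summed to between 149 and 293 TPM in tumor and between 1660 and 19624 TPM in spleen, with 13 of 14 markers lower in every tumor library than in every spleen library. Myeloid markers summed to between 614.5 and 1129 TPM in tumor and between 4083 and 24502 TPM in spleen. Of the 20 myeloid markers, 9 were lower in every tumor library than in every spleen library. Cd74 was the largest of them in each spleen library, at 1835, 2734, 2412 and 10398 TPM. S100a8 overlapped, with 51.6, 193.4, 153.4 and 36.8 TPM in tumor and 30.3, 24.8, 46.2 and 1841 TPM in spleen. In the other direction, melanocyte markers summed to between 434 and 1008 TPM in tumor and between 7.6 and 22 TPM in spleen, keratinocyte markers to between 350.4 and 2524 TPM in tumor and between 27.1 and 43.7 TPM in spleen, and erythroid markers to between 3610 and 12469 TPM in tumor and between 82.2 and 1469 TPM in spleen. The part of these cells in the results was not tested.

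**Figure D1:**
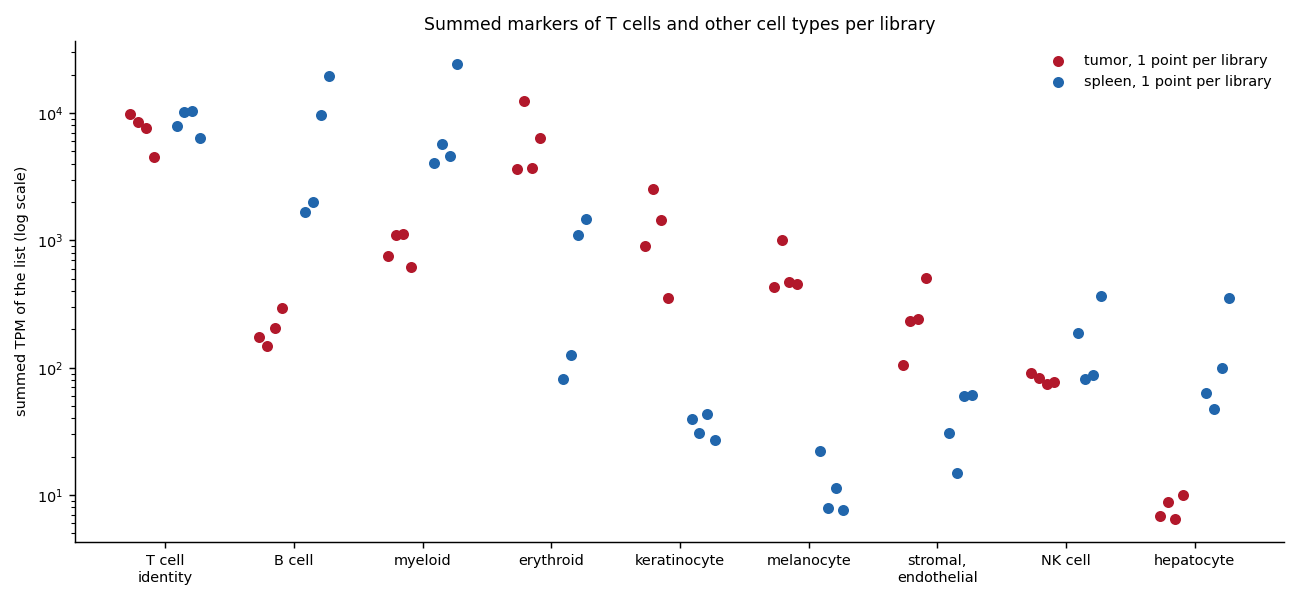
Summed TPM (log axis) of markers of T cells and of 8 other cell types in each tumor library (red) and each spleen library (blue), with 1 point per library. T cell identity sums overlapped, B cell and myeloid sums were lower in all 4 tumor libraries, and keratinocyte, melanocyte and erythroid sums were higher in all 4.

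Among inhibitory receptors, 6 of 21 were higher in tumor cells and 15 had no call. Pdcd1, which encodes PD-1, stood first by size of change (chr1:94038305-94052553, minus strand, GRCm38). It had 601, 499.9, 472 and 315 TPM in the 4 tumor libraries and 20.8, 31.3, 20.1 and 29.9 TPM in the 4 spleen libraries. The lowest tumor library thus lay far above the highest spleen library, and the log2 change was 4.15 (SE 0.76, adjusted p = 5.39e-04). Lag3, a receptor for MHC class II, had 24.5, 23.4, 19.4 and 15.8 TPM in tumor and 0.84, 1.24, 1.54 and 1.89 TPM in spleen. It changed by 3.19 (SE 0.33, adjusted p = 1.15e-07), again with no overlap. Ctla4, a receptor that competes with CD28 for its ligands, averaged 71.2 ± 14.7 TPM in tumor and 9.38 ± 2.59 TPM in spleen (log2 change 2.81, SE 0.58, adjusted p = 0.00234).

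Of 21 tested inhibitory receptors and ectoenzymes, 6 were higher and none lower, and their median log2 change was 1.40, against -0.03 for all tested genes. The other 3 called members held less firmly. Havcr2, which encodes TIM-3, changed by 2.85 (SE 0.74, adjusted p = 0.0169), but lost its call without spleen library 1 (0.0615), spleen library 3 (0.0526) or tumor library 2 (0.0532). Entpd1, the ectoenzyme CD39, had 81.9, 66.6, 66.6 and 39.2 TPM in tumor and 6.3, 3.11, 19.7 and 39.4 TPM in spleen. Spleen library 4 overlapped tumor library 4, and the change of 2.31 (SE 0.64, adjusted p = 0.0264) lost its call without spleen library 1 (adjusted p = 0.082) or 2 (0.129), without tumor library 1 (0.0733), 2 (0.0673) or 3 (0.0689), and in a fit of the 2 groups alone (0.0791). Cd160 changed by 2.75 (SE 0.80, adjusted p = 0.0336), with adjusted p between 0.0563 and 0.0998 when spleen library 1, 3 or 4 or tumor library 1, 2 or 3 was left out, 0.0642 with no filter and 0.255 with a pseudocount of 0.1. The count of 6 was 3 without spleen library 1 or tumor library 2. It was 10 without 5 libraries of the series with little T cell RNA. These 5 were tumor library 4, skin library 4 and liver libraries 2, 3 and 4. Leaving them out thus also changed the pooled spread that comes from groups outside the comparison. Tigit, with 249.3, 201, 133 and 67.9 TPM in tumor and 63.0, 52.6, 11.4 and 33.0 TPM in spleen, did not overlap but was not called (log2 change 2.08, SE 0.77, adjusted p = 0.113). It was called without the 5 libraries with little T cell RNA (0.00249), with array weights (0.0144), with quantile normalization (0.0157) and after rescaling without mitochondrial, marker and predicted genes (0.0301).

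Among transcription factors of chronic stimulation and effector fate, 3 of 23 tested genes were higher and none was lower, with a median log2 change of 0.80. Tox had 109, 70.8, 93.0 and 48.6 TPM in tumor and 3.41, 0.81, 15.9 and 7.64 TPM in spleen. All tumor libraries lay above all spleen libraries (log2 change 3.74, SE 0.61, adjusted p = 1.29e-04). Nr4a2, an orphan nuclear receptor induced by T cell receptor signals, had 78.7, 47.2, 67.7 and 29.0 TPM in tumor and 0.59, 0, 2.5 and 3.49 TPM in spleen (4.57, SE 0.69, adjusted p = 5.45e-05). Bhlhe40, a factor needed for cytokine output of activated T cells, changed by 3.00 (SE 0.72, adjusted p = 0.00852), or 2.21 without spleen library 2 (adjusted p = 0.0574). The count of 3 was 6 without spleen library 4, 6 without tumor library 4, 6 without both of them, and 10 without the 5 libraries with little T cell RNA. Nr4a1, a relative of Nr4a2, was not called (1.02, SE 0.81, adjusted p = 0.598).

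**Figure D2:**
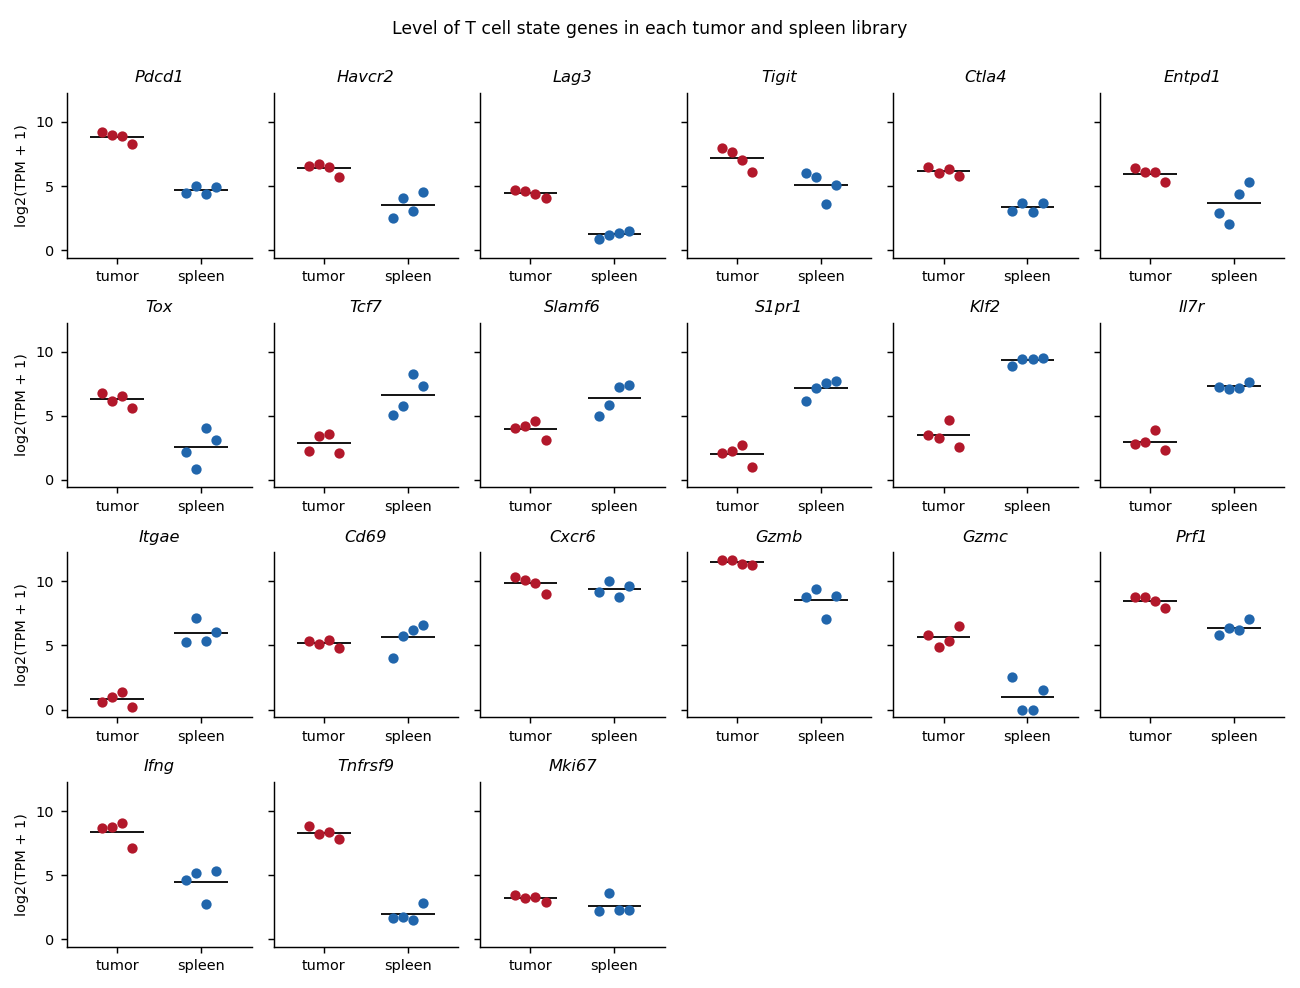
Level on the log2(TPM + 1) scale of T cell state genes in each tumor library (red, left) and each spleen library (blue, right), with the mean of 4 libraries as a bar. Pdcd1, Lag3, Ctla4 and Tnfrsf9 lay higher in all 4 tumor libraries, Klf2, Il7r, S1pr1 and Itgae lower in all 4, and Cd69, Cxcr6 and Mki67 overlapped.

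Secreted chemokines and a costimulatory receptor were among the 12 largest called increases with no overlap, at a mean log2 level of at least 3 and leaving out marker genes, predicted genes and antigen receptor segments. Ccl3, a ligand of CCR1, had 1758, 2046, 1547 and 692 TPM in tumor and 17.7, 0, 0 and 32.5 TPM in spleen. Every tumor library was far above the spleen libraries, and the log2 change was 8.13 (SE 0.82, adjusted p = 6.23e-08). Ccl1, the ligand of CCR8, had 328, 356, 311 and 66.5 TPM in tumor and 0.74, 0, 0 and 0.21 TPM in spleen (7.53, SE 1.08, adjusted p = 2.32e-05). Tnfrsf9, which encodes the costimulatory receptor 4-1BB, had 463, 294, 335 and 223 TPM in tumor and 2.24, 2.38, 1.81 and 6.26 TPM in spleen (6.36, SE 0.87, adjusted p = 1.17e-05). Ccl4, from the same chromosomal cluster as Ccl3, averaged 2706 ± 1051 TPM in tumor and 150.3 ± 107.3 TPM in spleen (4.33, SE 0.53, adjusted p = 1.95e-06).

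The 250 bases before the RefSeq start of Ccl3, Ccl1 and Tnfrsf9 and of Klf2, the factor of the egress program, are shown because these genes changed strongly in opposite directions. They come from RefSeq on GRCm38.p6, which held promoters for 71 of the 99 named genes. Capitals in the first 3 mark GGAAA on either strand, the core that NFAT, the factor of calcium signals in T cells, binds, and capitals in Klf2 mark the core of the MEF2 motif, CTA and TAG with 4 bases of any kind between them.
Ccl3 (chr11:83649379-83649628, minus strand): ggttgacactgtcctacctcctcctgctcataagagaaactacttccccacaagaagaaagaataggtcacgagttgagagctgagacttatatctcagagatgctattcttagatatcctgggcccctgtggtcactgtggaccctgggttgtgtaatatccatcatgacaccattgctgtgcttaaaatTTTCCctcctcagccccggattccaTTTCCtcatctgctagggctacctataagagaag
Ccl1 (chr11:82179813-82180062, minus strand): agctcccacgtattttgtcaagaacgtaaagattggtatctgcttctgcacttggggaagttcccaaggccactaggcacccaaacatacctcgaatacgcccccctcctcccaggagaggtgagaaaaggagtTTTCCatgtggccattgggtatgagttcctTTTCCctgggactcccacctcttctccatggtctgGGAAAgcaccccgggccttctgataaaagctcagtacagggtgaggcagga
Tnfrsf9 (chr4:150919905-150920154, plus strand): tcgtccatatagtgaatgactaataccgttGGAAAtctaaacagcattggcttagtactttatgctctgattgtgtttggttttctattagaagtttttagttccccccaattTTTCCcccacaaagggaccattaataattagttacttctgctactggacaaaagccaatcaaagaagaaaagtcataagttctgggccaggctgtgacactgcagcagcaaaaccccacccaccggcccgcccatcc
Klf2 (chr8:72318812-72319061, plus strand): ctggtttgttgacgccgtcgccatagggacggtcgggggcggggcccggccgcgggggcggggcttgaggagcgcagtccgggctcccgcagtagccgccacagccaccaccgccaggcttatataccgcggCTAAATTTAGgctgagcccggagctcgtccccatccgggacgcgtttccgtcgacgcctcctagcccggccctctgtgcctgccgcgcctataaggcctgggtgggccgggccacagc
GGAAA was found 2 times in Ccl3, 3 times in Ccl1 and 2 times in Tnfrsf9, and also 1 time in Klf2. It is a short word that 55.7% of 32536 promoters of this length hold. The MEF2 core was found 1 time in Klf2 and 1 time in Ccl3 and is held by 3.22% of promoters. The AP-1 word TGANTCA, held by 6.73% of promoters, is not in these 4 windows. These are matches of letters and not measured binding sites. The last bases of the Klf2 window lie in the first exon that GENCODE gives for it. The Tnfrsf9 and Ccl1 windows lie inside the GENCODE spans of these genes, chr4:150914562-150946102 and chr11:82176657-82305690.

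Of 23 tested T cell cytokines and chemokines, 10 were higher and 1 was lower, with a median log2 change of 1.26. Ifng, the cytokine that drives MHC expression and macrophage activation, had 404, 438, 540 and 137 TPM in tumor and 23.8, 34.9, 5.72 and 38.7 TPM in spleen (3.94, SE 0.59, adjusted p = 3.98e-05). Tumor library 4 was the lowest of its group and still above every spleen library. Xcl1, the ligand that draws XCR1+ dendritic cells, had 379.9, 183, 467 and 150.5 TPM in tumor and 24.3, 8.14, 16.8 and 21.2 TPM in spleen (3.93, SE 0.97, adjusted p = 0.0108), with no call at a pseudocount of 0.1 (0.0749). Spp1, osteopontin, had 156, 76.0, 53.2 and 49.4 TPM in tumor and at most 0.42 TPM in spleen (5.88, adjusted p = 2.45e-04). Myeloid cells and melanoma cells also express Spp1, and the melanocyte sum was higher in tumor while the myeloid sum was lower, though not each myeloid marker. Csf2, which encodes GM-CSF, had 17.7, 3.42, 27.8 and 6.38 TPM in tumor and at most 1.86 TPM in spleen (2.83, SE 0.50, adjusted p = 3.86e-04). The member that was lower was Ccl5, a chemokine that memory CD8 T cells store ready-made. Ccl5 had 2783, 2954, 1782 and 674 TPM in tumor and 23419, 21670, 5067 and 5757 TPM in spleen, with no overlap (-2.64, SE 0.65, adjusted p = 0.0111). That call was lost without spleen library 2 (adjusted p = 0.0506) or tumor library 4 (0.0672), and in a fit of the 2 groups alone (0.0681).

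Costimulatory receptors split: 2 of 16 were higher and 2 were lower. Beside Tnfrsf9, Tnfrsf4, which encodes OX40, averaged 161 ± 48.2 TPM in tumor and 8.05 ± 4.51 TPM in spleen (4.26, SE 0.78, adjusted p = 5.80e-04). Tnfrsf25, the receptor for TL1A, had 0.68, 0.78, 0.58 and 0.26 TPM in tumor and 1.55, 14.5, 14.9 and 9.68 TPM in spleen (-2.53, SE 0.53, adjusted p = 0.00252). Cd7 was lower by a log2 change of -2.43 (SE 0.56, adjusted p = 0.006), or -1.96 without tumor and spleen libraries 4 (adjusted p = 0.0524), and was not called in a fit of the 2 groups alone (0.0734).

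Granzymes moved in opposite directions. Gzmb, the granzyme that activates caspases in target cells, had 3278, 3276, 2626 and 2441 TPM in tumor and 450.9, 664, 134 and 458 TPM in spleen. All tumor libraries lay above all spleen libraries (2.96, SE 0.55, adjusted p = 7.12e-04). Gzma, a granzyme with trypsin-like activity, had 50.3, 4.53, 55.6 and 15.0 TPM in tumor and 3636, 1024, 413 and 1353 TPM in spleen. It was lower in every tumor library (-5.74, SE 0.90, adjusted p = 8.90e-05), although spleen libraries differed widely among themselves. Gzmf and Gzmc, late granzymes of strongly activated cells, changed by 4.41 (SE 0.28, adjusted p = 5.49e-12) and 4.63 (SE 0.72, adjusted p = 7.63e-05). Gzmf had 29.6, 21.8, 26.9 and 18.5 TPM in tumor and 0, 0, 0.65 and 0.11 TPM in spleen. Gzmc to Gzmg are related genes of similar sequence between which reads can be divided, so their separate values are uncertain.

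In the list of granzymes, perforin and death ligands, 5 of 24 tested genes were higher and 2 lower, with a median log2 change of 0.78. The count of 5 was 3 without spleen library 1, spleen library 2, tumor library 1 or tumor library 3. The count of 2 was 1 without spleen library 1 or 3, or without tumor library 1, 3 or 4. Prf1, which encodes perforin, had 447, 450.03, 347 and 239 TPM in tumor and 55.3, 80.9, 73.1 and 133 TPM in spleen. It did not overlap but was not called (2.13, SE 0.81, adjusted p = 0.125), and was called in a fit of the 2 groups alone (adjusted p = 0.00724) and without the 5 libraries with little T cell RNA (1.13e-04). Nkg7, a granule membrane protein, had 4809, 4069, 3294 and 2028 TPM in tumor and 6336, 6413, 2659 and 2179 TPM in spleen and was not called (-0.21, SE 0.55, adjusted p = 0.913). Among 20 killer lectin and natural killer receptors the 1 called gene was Cd160, and Klrk1, which encodes NKG2D, was not called (0.01, SE 0.52, adjusted p = 1).

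**Figure D3:**
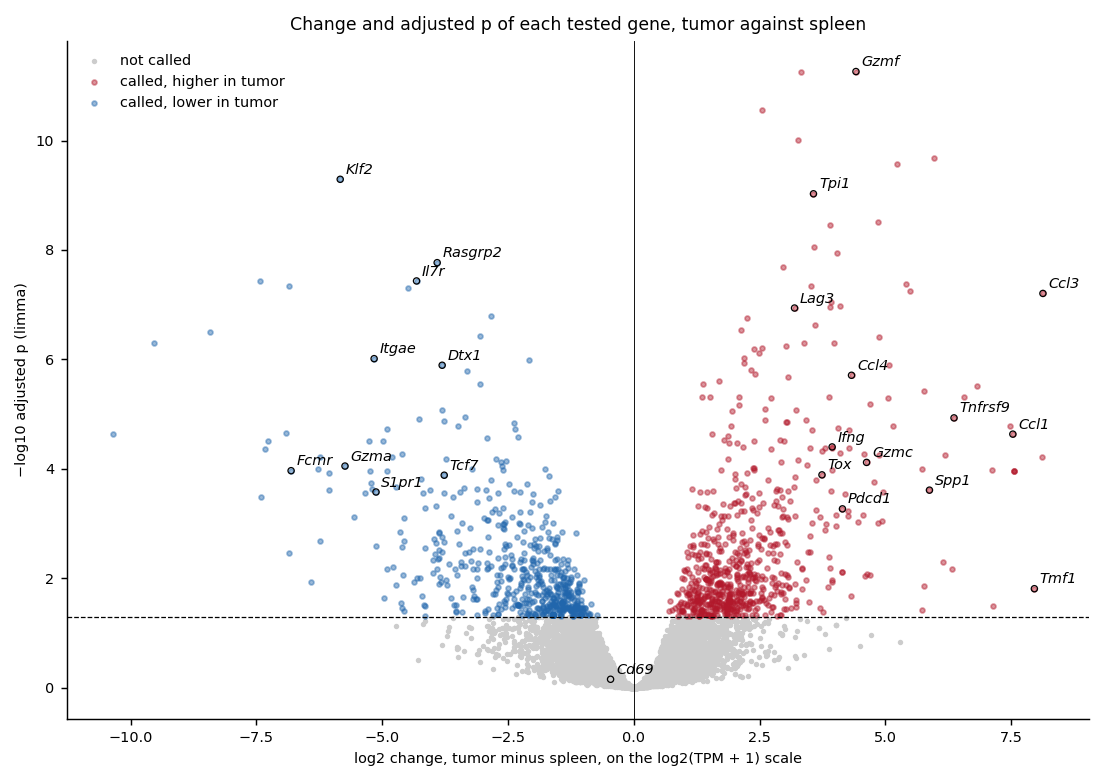
Each tested gene by its log2 change, tumor minus spleen (x axis), and the -log10 of its limma adjusted p (y axis). The dashed line is an adjusted p of 0.05, and genes beyond it are red where higher and blue where lower in tumor. Ccl3, Ccl1, Tnfrsf9 and Gzmf stand far to the right, and Klf2, Gzma, Itgae and S1pr1 far to the left.

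Of 26 tested genes of naive, stem-like and central memory T cells, 8 were lower in tumor cells, none was higher and 18 had no call, with a median log2 change of -1.74. Tcf7, which encodes TCF-1, had 3.84, 9.59, 11.1 and 3.28 TPM in tumor and 33.1, 52.4, 308 and 160 TPM in spleen. It was lower in every tumor library (-3.77, SE 0.61, adjusted p = 1.31e-04), and spleen libraries 3 and 4 held most of it. Il7r, the alpha chain of the IL-7 receptor, had 5.88, 6.81, 13.5 and 3.91 TPM in tumor and 154, 139, 140.2 and 197 TPM in spleen, a tight group (-4.32, SE 0.42, adjusted p = 3.68e-08). Dtx1, a target of Notch, averaged 2.68 ± 1.37 TPM in tumor and 51.4 ± 23.9 TPM in spleen (-3.81, SE 0.46, adjusted p = 1.28e-06). B cells also express Dtx1, and the B cell sum was highest in spleen libraries 3 and 4. Naive cells had a Dtx1 median of 132.8 TPM, with B cell sums of 862 to 1014 TPM. Day 12 lymph node cells had a Dtx1 median of 32.8 TPM, with B cell sums of 209 to 281 TPM. The source of Dtx1 in spleen was not tested.

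Id3, Bach2 and Cxcr5 were also called lower. Id3 lost its call without spleen library 3 (adjusted p = 0.0855) or 4 (0.0818) or tumor library 1 (0.0608), 3 (0.0573) or 4 (0.0606), and Bach2 without spleen library 3 (0.0748) or 4 (0.0651) or tumor library 2 (0.0515) or 4 (0.0509). Foxo1, the factor upstream of Klf2 and Il7r, had 6.69, 6.98, 6.06 and 3.95 TPM in tumor and 11.4, 25.1, 35.9 and 32.1 TPM in spleen (-1.88, SE 0.45, adjusted p = 0.00863), and lost its call without tumor and spleen libraries 4 (adjusted p = 0.0871). Ccr7 had 13.2, 1.94, 7.59 and 5.24 TPM in tumor and 14.2, 8.5, 444.9 and 139.7 TPM in spleen and was not called (-3.00, SE 1.24, adjusted p = 0.173). Lef1, a partner of TCF-1, had 10.2, 8.97, 11.2 and 6.26 TPM in tumor and 10.5, 4.88, 313 and 67.5 TPM in spleen and was not called either (-1.80, SE 0.93, adjusted p = 0.315). For both, spleen libraries 1 and 2 lay at or near the tumor range, and spleen libraries 3 and 4 far above it. Naive cells, where these genes are known to be high, had medians of 684 TPM for Ccr7 and 592 TPM for Lef1. Slamf6, a marker of progenitor exhausted cells, did not overlap, at 7.43 to 23.4 TPM in tumor and 30.1 to 165 TPM in spleen, and was not called (-2.37, SE 0.92, adjusted p = 0.14), but was called in a fit of the 2 groups alone (0.0449) and with weights per group (0.0232) or library (0.00655). Without tumor and spleen libraries 4 the count of 8 was 4.

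Of 24 tested egress genes 12 were lower in tumor cells, none was higher and 12 had no call, with a median log2 change of -2.05, and 7 were lower without tumor and spleen libraries 4. Klf2 (chr8:72319033-72321656, plus strand) had 10.2, 8.65, 23.8 and 4.94 TPM in tumor and 483, 698, 683 and 725 TPM in spleen. The log2 change was -5.83 (SE 0.46, adjusted p = 5.12e-10), with a wide gap between the groups. S1pr1, the receptor that follows sphingosine-1-phosphate out of tissue, had 3.33, 3.73, 5.64 and 0.98 TPM in tumor and 69.0, 144, 185 and 209.9 TPM in spleen (-5.12, SE 0.88, adjusted p = 2.65e-04). Rasgrp2, an activator of the GTPase Rap1 in integrin-dependent arrest, averaged 19.2 ± 4.59 TPM in tumor and 299.6 ± 49.5 TPM in spleen (-3.91, SE 0.36, adjusted p = 1.71e-08). Klf3, a relative and target of Klf2, changed by -3.81 (SE 0.51, adjusted p = 8.46e-06). Itgb7, the beta chain that pairs with CD103 or with alpha 4 integrin, had 33.1, 58.8, 36.6 and 28.2 TPM in tumor and 326, 762, 591 and 537 TPM in spleen (-3.78, SE 0.52, adjusted p = 1.33e-05). S1pr4 averaged 9.43 ± 1.85 TPM in tumor and 40.4 ± 2.19 TPM in spleen (-2.01, SE 0.35, adjusted p = 2.90e-04).

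The same genes were read in other groups. Naive cells, which had B cell sums of 862 to 1014 TPM and myeloid sums of 123 to 189 TPM, had median levels of 575 TPM for Klf2, 296 TPM for S1pr1, 109 TPM for Il7r and 631 TPM for Tcf7. Day 12 lymph node cells, with B cell sums of 209 to 281 TPM, had medians of 311 TPM for Klf2, 98.3 TPM for S1pr1, 25.4 TPM for Il7r and 223 TPM for Tcf7. Il7r was thus lower there than in any spleen library. The part of B cell and myeloid RNA in the spleen levels was not tested.

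Residency genes were not uniformly higher in tumor. Of 24 tested members 6 were higher and 2 lower than in spleen, with a median log2 change of 0.53. Itgae, which encodes CD103, had 0.52, 0.94, 1.6 and 0.18 TPM in tumor and 38.3, 141, 39.6 and 64.2 TPM in spleen. It was lower in every tumor library (-5.16, SE 0.61, adjusted p = 9.70e-07). Cd69, the antagonist of S1PR1 at the cell surface, had 40.5, 33.7, 41.1 and 26.9 TPM in tumor and 15.3, 52.0, 73.0 and 94.3 TPM in spleen, and was not called (-0.46, SE 0.46, adjusted p = 0.701). Cxcr6, a chemokine receptor of tissue T cells, averaged 974 ± 321 TPM in tumor and 724 ± 277 TPM in spleen and overlapped (0.43, SE 0.48, adjusted p = 0.739). Qpct was the other lower member (-3.05, SE 0.65, adjusted p = 0.00289). Rgs1, a brake on chemokine receptor signals, had 214, 142, 189 and 129 TPM in tumor and 36.3, 22.2, 14.7 and 85.8 TPM in spleen (2.33, SE 0.44, adjusted p = 8.74e-04). Litaf and Isg20 were also higher, by 2.22 (SE 0.47, adjusted p = 0.0031) and 1.86 (SE 0.44, adjusted p = 0.00766), and Isg20 was not called in a fit of the 2 groups alone (0.0513). Zfp683, which encodes the residency factor Hobit, had 15.2, 13.7, 18.6 and 9.51 TPM in tumor and 2.4, 5.66, 0.19 and 3.92 TPM in spleen (2.13, SE 0.56, adjusted p = 0.0168), and lost its call without spleen library 3 (0.0921) or tumor library 3 (0.0603) and in a fit of the 2 groups alone (0.053).

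Skin Pmel cells, from the tissue that loses its pigment, are another solid-tissue group. Their skin was digested with collagenase, and the labels give no dissociation for tumor or spleen. Both comparisons use the same tumor libraries. Between tumor and skin 1448 genes were called (7.34%), 699 higher in tumor (3.54%) and 749 lower (3.79%). The residency list had 12 of 24 members lower in tumor than in skin and none higher, with a median log2 change of -1.72, against 0.09 for all tested genes. Itgae had 0.52, 0.94, 1.6 and 0.18 TPM in tumor and 502, 575, 339 and 107 TPM in skin (-7.53, SE 0.61). Cd69 had 26.9 to 41.1 TPM in tumor and 295 to 1120 TPM in skin (-4.13, SE 0.46), while Cxcr6 was not called (0.11). Itga1, the CD49a chain, and Ccr8 were lower in tumor than in skin by -2.92 (SE 0.66, adjusted p = 0.00432) and -3.77 (SE 0.80, adjusted p = 0.00241).

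Against skin, 4 of 24 egress genes were lower in tumor and 2 higher, and of 21 inhibitory receptors 5 were higher and 2 lower. The 2 higher egress genes were 0 without skin library 2 or 3 or tumor library 1 or 3, and the 5 higher receptors were 3 without skin library 4. S1pr1 had 3.33, 3.73, 5.64 and 0.98 TPM in tumor and 1.66, 4.91, 10.1 and 0.8 TPM in skin (-0.05, SE 0.88). Klf2 was lower in tumor than in skin, at 4.94 to 23.8 TPM against 10.2 to 150.1 TPM (-2.02, SE 0.46), although the groups overlapped. Pdcd1 had 601, 499.9, 472 and 315 TPM in tumor and 668, 571, 482 and 42.7 TPM in skin, and was not called (0.62, SE 0.76, adjusted p = 0.768). Lag3 had 24.5, 23.4, 19.4 and 15.8 TPM in tumor and 2.65, 0.85, 2.07 and 0.78 TPM in skin (3.12, SE 0.33). Tox had 109, 70.8, 93.0 and 48.6 TPM in tumor and 12.5, 8.06, 6.39 and 3.21 TPM in skin (3.31, SE 0.61). Ifng went the other way, with 404, 438, 540 and 137 TPM in tumor and 3230, 2078, 1100 and 839 TPM in skin (-2.22, SE 0.59), but its call was lost without skin library 1 (adjusted p = 0.0763), skin library 2 (0.0562) or tumor library 4 (0.0873). Skin library 4 had low T cell identity, as had tumor library 4.

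**Figure D4:**
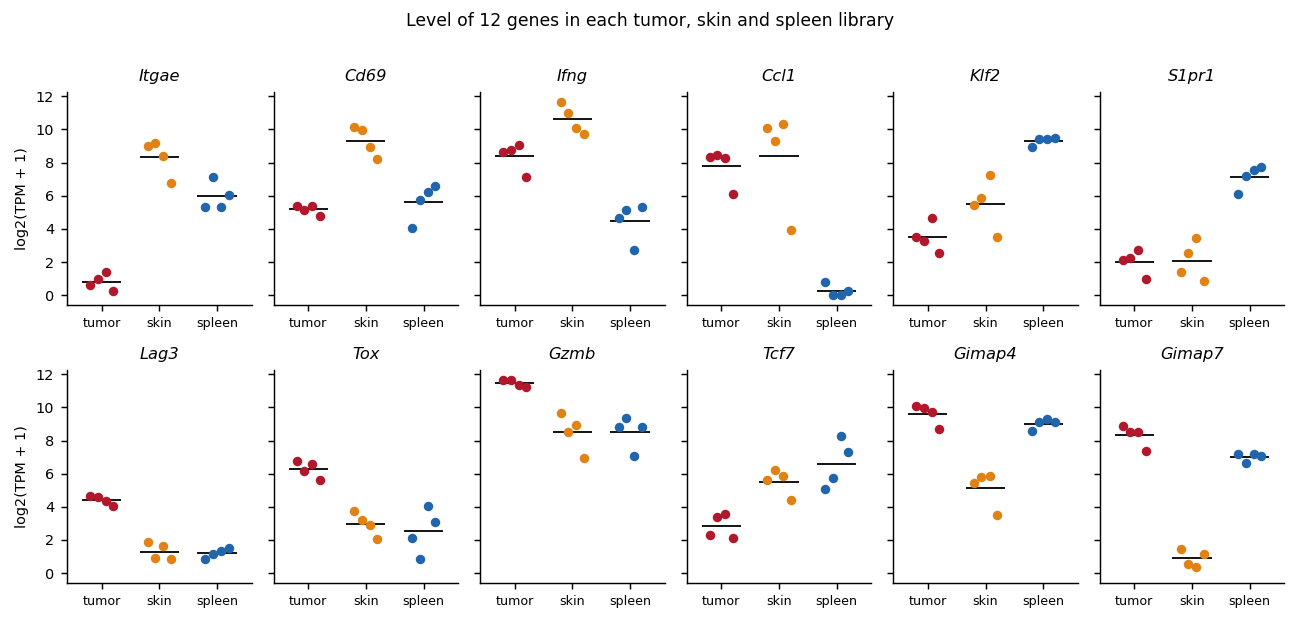
Level on the log2(TPM + 1) scale of 12 genes in each tumor (red, left), skin (orange, middle) and spleen (blue, right) library, with the mean of 4 as a bar. On average Itgae and Cd69 were highest in skin and Itgae lowest in tumor, Lag3, Tox and Gzmb were highest in tumor, S1pr1 was low in tumor and skin, and Gimap4 and Gimap7 were lower in skin than in tumor or spleen.

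Immediate early genes, which respond within minutes to receptor signals or to handling of tissue, were lower in tumor than in skin. Of 37 tested members 29 were lower in tumor than in skin and none higher, with a median log2 change of -3.68. Against spleen 4 were higher and 3 lower, with a median of 0.08. Fos had 4.28, 7.84, 7.62 and 6.10 TPM in tumor and 0.11, 1.42, 9.22 and 96.0 TPM in spleen, and its median in skin was 1493 TPM. The 4 higher against spleen were Nr4a2, Rgs1, Dusp4 (3.70, SE 0.69, adjusted p = 7.67e-04) and Dusp6 (2.95, SE 0.59, adjusted p = 0.00146, and 0.0848 in a fit of the 2 groups alone). Dusp4 and Dusp6 encode phosphatases that act on ERK kinases. The 3 lower were Btg2 (-1.99, SE 0.41, adjusted p = 0.00234), Ier2 (-1.30) and Ier5 (-1.52). The count of 3 was 1 without spleen library 4, tumor library 2 or tumor library 4, and 0 without both libraries 4.

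The Gimap genes, GTPases of lymphocyte survival, gave none of 9 calls between tumor and spleen by limma, and 0 at an unadjusted p under 0.05. Without the 5 libraries with little T cell RNA 2 were called higher than in spleen, Gimap4 (adjusted p = 0.00343) and Gimap7 (0.00298). Against skin 8 of 9 were higher in tumor than in skin. Gimap4 had 1090, 986, 838 and 416 TPM in tumor, 43.0, 53.9, 56.5 and 10.6 TPM in skin, and 388, 552, 624 and 551 TPM in spleen. Its log2 change was 4.46 against skin and 0.59 (SE 0.40, adjusted p = 0.512) against spleen. Gimap7 had 163 to 474 TPM in tumor, 0.3 to 1.79 TPM in skin and 97.4 to 147 TPM in spleen. The medians in naive cells were 696 TPM for Gimap4 and 214 TPM for Gimap7. Type I interferon response genes gave 0 of 30 calls between tumor and spleen by limma, 7 higher at an unadjusted p under 0.05, with a median log2 change of 0.61. Without spleen library 2 there was 1 call, and without the 5 libraries with little T cell RNA there were 8. Against skin 15 of 30 were higher in tumor, with a median of 1.62. Ifi27l2a had 5974, 4686, 3914 and 2836 TPM in tumor and 681, 2447, 853 and 582 TPM in spleen. It was not called against spleen (2.14, SE 0.70, adjusted p = 0.0634, but 0.0403 in a fit of the 2 groups alone and 0.00928 without the 5 libraries) and was higher than in skin (4.21, SE 0.70, adjusted p = 1.41e-04).

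Of 19 tested chemokine receptors 6 were lower in tumor than in spleen, 1 was higher and 12 had no call, with a median log2 change of -1.17. Cxcr4, the receptor for CXCL12, had 2.02, 1.39, 1.7 and 1.32 TPM in tumor and 27.8, 16.0, 9.36 and 30.01 TPM in spleen (-2.94, SE 0.50, adjusted p = 2.48e-04). Ccr10, a receptor for skin chemokines, had 0.17, 1.54, 1.09 and 0.16 TPM in tumor and 11.3, 269, 20.8 and 48.6 TPM in spleen (-4.73, SE 0.80, adjusted p = 2.11e-04). Cxcr5 and Ccr6, which B cells also express, changed by -3.87 (SE 0.83, adjusted p = 0.00309) and -3.27 (SE 0.70, adjusted p = 0.0033), and were highest in spleen library 4, which had the largest B cell sum. The higher member was Ccrl2, a chemerin-binding receptor (3.24, SE 0.73, adjusted p = 0.00501), and this count of 1 was 2 without spleen library 1. Without tumor and spleen libraries 4 the lower count was 4.

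Cytokine receptor chains gave 2 of 26 higher and 2 lower, a median log2 change of 0.19. Il2ra, the high-affinity IL-2 receptor chain of activated cells, had 25.4, 21.2, 26.1 and 28.2 TPM in tumor and 9.94, 2.41, 1.93 and 7.83 TPM in spleen (2.23, SE 0.48, adjusted p = 0.0033). Il12rb2, the signalling chain of the IL-12 receptor, had 39.9, 56.1, 45.5 and 16.1 TPM in tumor and 0.29, 0.94, 0.13 and 11.9 TPM in spleen (3.91, SE 0.90, adjusted p = 0.00642). The lower members were Il7r and Tgfbr3. The lower count was 1 without spleen library 2, spleen library 4 or tumor library 1. Receptor complex and proximal signalling genes gave 2 of 29 higher, Cblb and Ubash3b, which both restrain receptor signals, and none lower. Both changes, 2.04 (SE 0.55, adjusted p = 0.0213) for Cblb and 2.19 (SE 0.59, adjusted p = 0.0216) for Ubash3b, lost their calls, for a count of 0, without spleen library 1 or 2 or tumor library 1, 2 or 3.

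Of 40 tested cell cycle genes 21 were higher in tumor, none was lower and 19 had no call, with a median log2 change of 1.88, and in 36 of the 40 every tumor library lay above every spleen library. The count was 13 without spleen library 3 and 33 without the 5 libraries with little T cell RNA. Tk1, a thymidine kinase of S phase, had 99.7, 68.7, 81.0 and 75.0 TPM in tumor and 19.5, 18.5, 12.5 and 21.1 TPM in spleen (2.13, SE 0.36, adjusted p = 1.87e-04). Tpx2, a spindle factor, had 31.1, 26.6, 27.5 and 24.1 TPM in tumor and 2.36, 0.45, 3.2 and 9.58 TPM in spleen (2.88, SE 0.57, adjusted p = 0.00131). Ccnb1, cyclin B1, had 72.6, 57.7, 50.2 and 44.6 TPM in tumor and 2.62, 0.09, 0.46 and 35.5 TPM in spleen, where library 4 came close to the tumor range (3.89, SE 0.85, adjusted p = 0.0041, and 0.0504 in a fit of the 2 groups alone). Mki67 was not called (0.61, SE 0.44, adjusted p = 0.542), with 9.76, 8.46, 8.73 and 6.52 TPM in tumor and 3.59, 11.5, 3.94 and 3.92 TPM in spleen, nor was Pcna (0.33, SE 0.41, adjusted p = 0.766). Day 12 lymph node cells had higher medians than either group, such as 102 TPM for Tpx2 and 39.4 TPM for Mki67. Melanoma cells and keratinocytes can also cycle, and the sums of their markers were higher in tumor. In tumor libraries 1 to 4 the melanocyte sums were 434, 1008, 471 and 454 TPM. The keratinocyte sums were 904, 2524, 1440 and 350 TPM in the same order. The part of these cells in the cell cycle changes was not tested.

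Of 28 tested glycolysis and hypoxia genes 12 were higher in tumor, none was lower and 16 had no call, and all 28 changes lay between 0.53 and 3.57, with a median of 1.51. Without the 5 libraries with little T cell RNA 21 were higher. Tpi1, triosephosphate isomerase, had 757, 576, 567 and 515 TPM in tumor and 36.3, 33.4, 58.0 and 84.0 TPM in spleen (3.57, SE 0.29, adjusted p = 9.41e-10). Gapdh averaged 2587 ± 581 TPM in tumor and 649 ± 180 TPM in spleen (2.01, SE 0.33, adjusted p = 1.27e-04). Ldha, which makes lactate, had 1987, 1513, 1438 and 1310 TPM in tumor and 256, 404, 620 and 512 TPM in spleen (1.85, SE 0.36, adjusted p = 0.00126). Bnip3, a mitophagy gene induced by hypoxia, averaged 85.2 ± 16.8 TPM in tumor and 13.7 ± 6.91 TPM in spleen (2.72, SE 0.41, adjusted p = 4.43e-05). Day 12 lymph node cells had medians of 271 TPM for Tpi1, 2075 TPM for Gapdh and 1611 TPM for Ldha. Nuclear-encoded respiratory chain subunits showed 0 of 36 calls by limma, 1 higher and 1 lower at an unadjusted p under 0.05, with changes between -0.86 and 0.87 and a median of -0.13. All mitochondrially encoded transcripts together summed to 54277 to 148483 TPM in tumor and 22468 to 57694 TPM in spleen, ranges that overlapped. The 13 tested mRNAs among them summed to 51800 to 141100 TPM in tumor and 20570 to 50170 TPM in spleen, with no overlap. Their median log2 change was 1.40, and 1 of the 13 was called, higher in tumor.

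**Figure D5:**
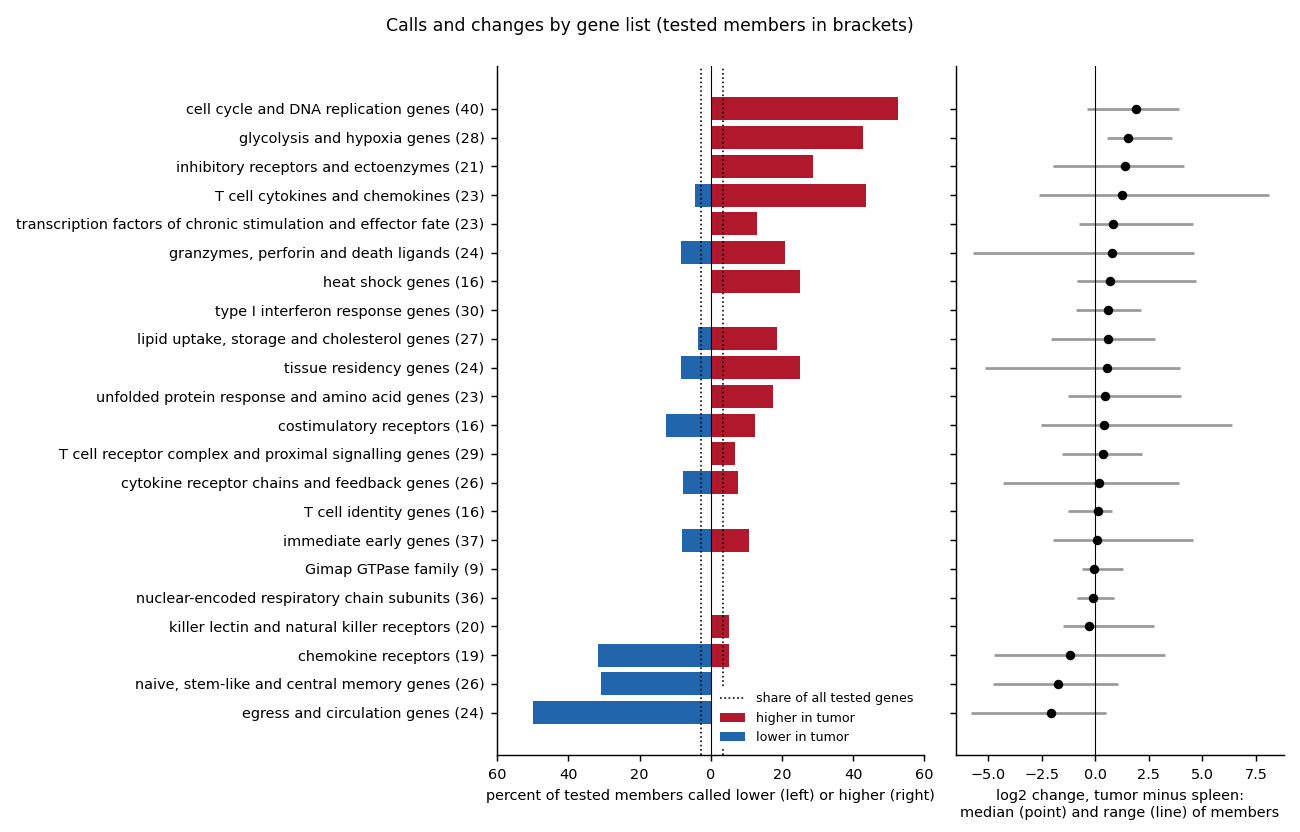
Share of tested members of 22 gene lists called higher (red, right) or lower (blue, left) in tumor than in spleen, with dotted lines at the shares of all tested genes, and at right the median (point) and range (line) of the members' log2 changes. Cell cycle, cytokine and glycolysis lists had the highest shares called higher, and egress, chemokine receptor and naive lists the highest shares called lower.

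In 3 further lists most members had no call. Of 23 unfolded protein and amino acid genes 4 were higher in tumor and none lower, and 2 of these were metallothioneins, which bind zinc and copper. Mt1 had 603, 469.6, 332 and 628 TPM in tumor and 69.9, 39.3, 18.6 and 62.5 TPM in spleen (3.51, SE 0.71, adjusted p = 0.00171). Mt2 changed by 4.01 (SE 0.75, adjusted p = 7.10e-04). The count of 4 was 2 without any of spleen libraries 1 and 2 or tumor libraries 1 to 4. Of 27 lipid and cholesterol genes 5 were higher and 1 lower, among them Sqle (2.78, SE 0.62, adjusted p = 0.00455), an enzyme of cholesterol synthesis. The count of 5 was 2 without any of spleen libraries 1 and 3 or tumor libraries 1 to 4. Heat shock genes gave 4 of 16 higher and none lower. Hspa1b had 150.3, 57.2, 128 and 158 TPM in tumor and 0, 0, 3.06 and 100.1 TPM in spleen, so that spleen library 4 overlapped (4.69, SE 1.13, adjusted p = 0.00887, and 0.0783 in a fit of the 2 groups alone). Hspa1a and Hspa1b are near-identical copies, and their separate values are uncertain.

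Within tumor, some genes with large called changes followed the library order of repeat-like predicted genes. Tmf1, Rorb, Slx1b and Gal3st3 were among the same 12 increases, and all 4 followed the same order of tumor libraries, with library 4 highest and library 1 lowest. Tmf1 had 7917, 19327, 24830 and 48892 TPM in tumor and 24.7, 35.1, 20.9 and 2367 TPM in spleen (7.96, SE 2.06, adjusted p = 0.0155). Its call was lost without spleen library 3 (adjusted p = 0.0553) or tumor library 4 (0.0523). Rorb (adjusted p = 0.0325) and Slx1b (0.0373) lost theirs without any 1 of spleen libraries 1 to 3 or tumor libraries 2 to 4, with adjusted p up to 0.1 for Rorb and 0.113 for Slx1b. The predicted genes Gm10800, Gm26870 and Gm10718 together had 24969, 39188, 107121 and 158328 TPM in tumor and 8863, 11303, 11274 and 57967 TPM in spleen, in the same order within tumor, with library 4 also highest in spleen. Tmf1 had 39.2, 35.8, 28.4 and 11903 TPM in skin and 635.5 to 997.2 TPM in naive cells. The 3 predicted genes together had 16628, 7010, 3260 and 380249 TPM in skin. In naive cells they had 30389, 133531, 126707 and 98562 TPM, within the tumor range, while Tmf1 there lay below every tumor library. Rpl38-ps2, also among the 12, had at least 144 TPM in tumor and 0, 0, 0 and 49.9 TPM in spleen. It had 0, 0, 0 and 39.2 TPM in skin and at least 125.8 TPM in naive cells. Genes above 0 TPM numbered 29535 to 33644 in tumor and 22905, 20399, 20841 and 29085 in spleen. The part of such differences between libraries in the calls was not tested. At the other end H3f3c, a histone H3.3 copy whose reads can be shared with its parent genes, had 0, 0, 0 and 3.01 TPM in tumor and 110 to 242 TPM in spleen (-6.85, SE 0.68, adjusted p = 4.48e-08). Fcmr, H2-Ob and Fcgrt, which B cells or myeloid cells express, were lower by -6.81 (SE 1.09, adjusted p = 1.08e-04), -5.22 (SE 0.87, adjusted p = 1.82e-04) and -4.90 (SE 0.69, adjusted p = 1.84e-05). Fcmr had at most 0.41 TPM in tumor, 73.9, 64.9, 142 and 397 TPM in spleen, and a median of 1.91 TPM in naive cells. H2-Ob had 25.4 to 134.6 TPM in spleen and a naive median of 25.3 TPM. Fcgrt had 48.2 to 175 TPM in spleen and a naive median of 27.5 TPM. The source of these transcripts was not tested.

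Of the 676 genes called higher in tumor, 391 (57.8%) had a median of at least 1 TPM in naive or day 12 lymph node cells, where keratinocyte sums stayed between 15.8 and 27.7 TPM. The share was 85.5% for the 557 genes called lower and 71.3% for all tested genes.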

How the data were processed

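Bulk RNA-seq values of 46517 genes in 32 libraries were deposited by the authors as natural log values, ln(TPM + 1). Alignment used Bowtie and mm10, per the submitters' processing notes, and no version or counting step is given there. Values were turned back to TPM, which summed to between 999999.06 and 1000000.8 per library, so sequencing depth is unknown. Genes with at least 1 TPM in at least 4 libraries were tested (19738 genes). limma 3.58.1 in R 4.3.3, with a variance trend, was run on log2(TPM + 1) over all 8 groups in 1 fit, with Benjamini-Hochberg adjustment. Tumor was set against spleen, and secondarily against skin. The T cell identity sum had an exact two-sided permutation test in SciPy 1.17.1. The text names core genes, the 12 largest called changes per direction with no overlap at a mean log2 level of at least 3 (marker genes, predicted genes and antigen receptor segments left out), up to 5 called genes per list, and, outside this rule, further list members and genes chosen after their values were seen. The members and lists were chosen with earlier results of these data known. Libraries with little T cell RNA had an identity sum under 0.5 of the median library. Gene positions came from GENCODE release 21 for mouse on GRCm38 and promoters from RefSeq. Filters, pseudocounts, scalings, weights, blocks and single left-out libraries were tried as alternatives. On simulated data for tumor against spleen with 19738 genes, the fit made 153 calls, 13 of them false, and recovered 42 of 100 genes changed by a log2 of 2 and 98 of 100 changed by 4. Results for some genes are not reported here.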

Additional observations from a re-analysis of the deposited data

Results flagged for a closer look

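Of 74 groups tested, 4 had a value far from the other libraries of their group, and chance flags about 1 in 20 groups, so this number is near what chance gives. Melanocyte markers summed to 1008 TPM in tumor library 2, against 434.1 to 470.8 TPM in the other tumor libraries. Klf2 lay at 8.92 on the log2(TPM + 1) scale in spleen library 1, against 9.418 to 9.504 in the other spleen libraries. Mki67 lay at 3.64 on that scale in spleen library 2, against 2.198 to 2.305 in the others. Myeloid markers summed to 2.45e+04 TPM in spleen library 4, against 4083 to 5675 TPM in the others.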

How the results depend on the processing

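No gene called in the main fit was called in the other direction under any alternative tried. Sign changes of genes without a call were not counted. The median change of all tested genes was -0.028, and 0.157 after rescaling without mitochondrial, marker and predicted genes. Between tumor and spleen, 676 genes were higher and 557 lower. These counts were 1201 and 1296 with array weights, 973 and 1018 with weights per group, 1166 and 1037 without the 5 libraries with little T cell RNA, and 579 and 273 without tumor and spleen libraries 4. Leaving out 1 library gave 450 to 728 higher and 328 to 569 lower. Rescaling without mitochondrial, marker and predicted genes gave 841 higher and 417 lower, so 66.9% of calls were higher, against 54.8%. Between tumor and skin, 699 genes were higher and 749 lower. These were 2301 and 2676 with array weights, 418 and 485 with a pseudocount of 0.1, 1076 and 1223 with quantile normalization, 1288 and 1316 with weights per group, and 1098 and 1486 without the 5 libraries. Leaving out 1 library gave 467 to 625 higher and 510 to 1015 lower. With a replicate block, tumor against spleen gave 738 and 636, or 140 and 122 with only these groups. In deviations from the group means, same-numbered tumor and spleen libraries correlated at -0.393, 0.0681, 0.00104 and -0.229. Differently numbered ones correlated at -0.222 to 0.451. These ranges overlap, so they cannot decide whether the numbers pair libraries. The cause of these shifts was not tested. Of 84 named called genes, 75 were still called in a fit of the 2 groups alone, 76 with no filter and 70 with a pseudocount of 0.1. With a replicate block and only the 2 groups, 46 were still called. Whichever single tumor or spleen library was left out, 64 stayed called. Depth is unknown, so the counting error of low values cannot be given.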

Other observations

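Further genes, chosen after their values were seen, differed between tumor and spleen. Txnip, an inhibitor of glucose uptake, had 82.5, 65.6, 81.4 and 28.6 TPM in tumor and 754.5, 503, 404 and 418 TPM in spleen (log2 change -3.05, limma adjusted p = 3.73e-07). Tsc22d3, a glucocorticoid-induced gene, was lower by -4.48 (adjusted p = 4.94e-08). Rgs16, a regulator of G protein signals, had 148, 124, 136 and 66.5 TPM in tumor and 0.89, 2.17, 0.24 and 1.56 TPM in spleen (5.78, adjusted p = 3.82e-06). Groups did not overlap for Txnip or Rgs16.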
